A study of Mus musculus with 960 samples.

Results

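MicroRNA gene loci are described here in the open chromatin of cells from a mouse breast tumour. The members were the genes that GENCODE release M1 (mouse build mm9) types as miRNA and names with a symbol beginning Mir, after 7 such genes (Mirlet7b, Mirlet7c-2 and the 5 genes of the miR-200 family) were left out. They made up 33.1% of the 1576 genes of that type, and the other 1054 were not members. The measurement was a list of 50000 accessible windows of 500 bp, and a window belonged to a member when it lay within 5 kb of the annotated hairpin. Windows within 1 kb of a protein-coding start site are called promoter windows below and were counted apart, since they can belong to a host or neighbouring gene, and all others are called distal windows.

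The tumours came from MMTV-PyMT mice, in which the mouse mammary tumour virus promoter drives the polyoma middle T oncogene in mammary epithelium, and which were killed at 3 months of age. Fixed single cells were stained, transposed in bulk with Tn5 and sorted into 960 wells on 10 plates. By GEO's labels, 8 plates were stained for EpCAM (found on the surface of epithelial cells) and HIF1α (the hypoxia-inducible factor subunit that oxygen destabilises). The other 2 were labelled as stained for EpCAM and CD45 (found on leukocytes). The list was called on pooled cells and is 1 sample without replicates, so no staining group, HIF1α level or animal could be compared and no test was run. It gives no height or read count, so the depth behind a window is unknown, and the intervals below are exact 95% binomial intervals that cover counting error only. The 5 epithelial genes Epcam, Krt8, Krt18, Cdh1 and Elf5 each had between 2 and 4 windows within 1 kb of a start site, whereas all 11 markers of blood cells, fibroblasts and endothelium (among them Ptprc, Col1a1 and Pecam1) had 0. The authors describe the cells stained for EpCAM and HIF1α as EpCAM-positive and from 1 tumour. Counts at markers and lists of other cell types therefore do not describe the whole tumour.

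A microRNA gene is transcribed, alone, as a cluster or within the intron or exon of a host gene, into a long primary transcript from which Drosha cuts the hairpin and Dicer the mature strand. Bases 2 to 8 of the mature strand, the seed, pair with target messenger RNAs, so genes with the same seed form a family. The start of the primary transcript often lies kilobases upstream of the hairpin and is seldom annotated, which makes open chromatin beside a hairpin a measurement of possible promoters and enhancers and not of the microRNA itself.

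The mature strands below belong to members with distal windows on which the results turn. They were taken from RefSeq (table build GRCm38.p6), where 78.9% of the members had an entry, and were placed on mm9 by exact match within the hairpin. Capitals mark the seed. The first group holds pairs of genes of 1 seed family, with both members near a distal window.
miR-99a-5p: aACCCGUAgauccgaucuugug
miR-99b-5p: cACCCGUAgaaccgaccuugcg
miR-125a-5p: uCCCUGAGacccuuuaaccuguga
miR-125b-5p: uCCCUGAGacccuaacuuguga
let-7c-5p: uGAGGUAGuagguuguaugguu
let-7i-5p: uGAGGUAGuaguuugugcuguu
miR-26a-5p: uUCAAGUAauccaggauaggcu
miR-26b-5p: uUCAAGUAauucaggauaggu
miR-27a-3p: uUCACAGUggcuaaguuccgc
miR-27b-3p: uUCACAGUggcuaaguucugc
miR-132-3p: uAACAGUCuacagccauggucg
miR-212-3p: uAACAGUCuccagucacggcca
miR-17-5p: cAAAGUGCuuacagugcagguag
miR-20a-5p: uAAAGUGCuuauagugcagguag

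The second group holds microRNAs known from epithelium, hypoxia or tumour growth.
miR-203-3p: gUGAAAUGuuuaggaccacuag
miR-205-5p: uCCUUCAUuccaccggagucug
miR-183-5p: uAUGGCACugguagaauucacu
miR-96-5p: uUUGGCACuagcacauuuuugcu
miR-148a-3p: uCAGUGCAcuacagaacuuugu
miR-210-3p: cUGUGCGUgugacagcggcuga
miR-21a-5p: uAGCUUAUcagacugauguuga

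A window of either kind lay within 5 kb of 23.9% of the members (interval 20.3 to 27.8), and 81 members had a distal window (15.5%, interval 12.5 to 18.9). A further 44 had promoter windows only, 16 had both kinds, and 76.1% had neither. As background, a window lay within 5 kb of 18.3% of 4839 other small RNA genes (miRNA-type genes without a Mir symbol, snoRNA, snRNA, rRNA and misc_RNA) and of 12.1% of ungapped genome bases, and a distal window lay within 5 kb of 10.5% of those genes and 8.42% of those bases. By type, the share with a distal window was 13.2% in the 1047 genes of type miRNA without a Mir symbol, 9.28% in snoRNA genes, 9.92% in snRNA genes, 11.5% in misc_RNA genes and 8.46% in rRNA genes. The members' interval lay above each of these shares except that of the other miRNA-type genes, and the intervals of the other miRNA-type genes (11.2 to 15.4) and the misc_RNA genes (8.8 to 14.7) overlapped it. The median distance to the nearest distal window was 55.8 kb for members and 60.7 kb for the other miRNA-type genes.

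**Figure D1:**
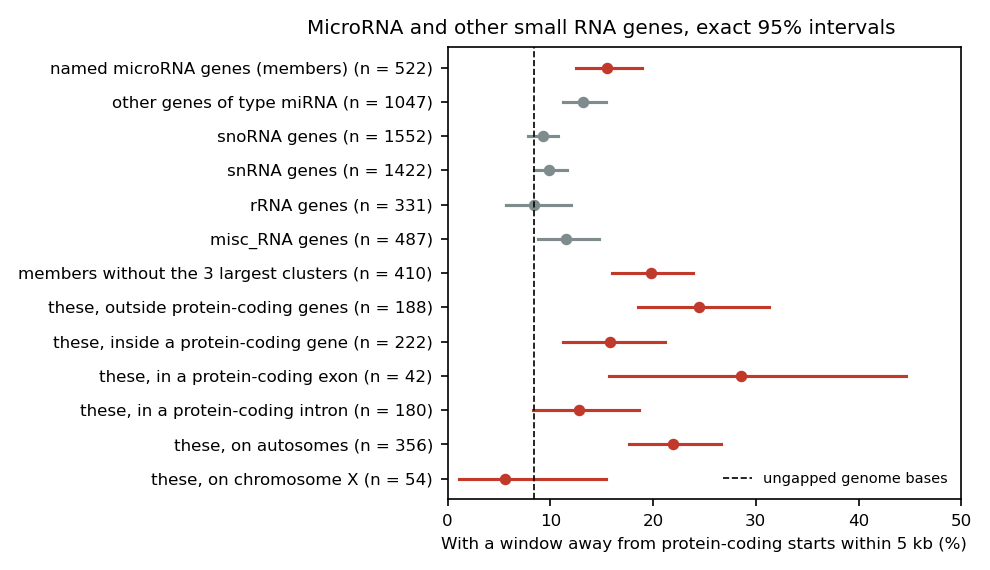
Percent of genes (x axis) with a distal window within 5 kb, for all microRNA members and, without the 3 largest clusters, their subsets (red) and other small RNA classes (grey), with n in each label, exact 95% intervals as bars and the share of ungapped genome bases as a dashed line. Members stand at 15.5%, and without the clusters at 19.8%, with 28.6% in protein-coding exons and 12.8% in introns. No clusters were removed from the other classes or from the genome share.

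Members in a cluster share windows, so the genes were also joined into loci, with hairpins on the same strand within 10 kb taken as 1 locus. A distal window lay within 5 kb of 64 loci (19.8%, interval 15.6 to 24.6). Of these, 31 loci had 1 distal window, 13 had 2, 12 had 3, 4 had 4, 3 had 5 and 1 had 6. Of the loci of 1 gene, 52 had a distal window (19.1%, interval 14.6 to 24.3), and of the loci of several genes, 12 of 51 (23.5%, interval 12.8 to 37.5), so the intervals overlapped. No background share was computed for loci.

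The 3 largest clusters hold 21.5% of the members, and none of these genes had a window within 5 kb. The 68 genes from Mir466f-1 on chromosome 2, in the Mir297, Mir466, Mir467 and Mir669 families, lay at least 91795 bp from any window. The 31 genes from Mir379 to Mir410 on chromosome 12, an imprinted cluster transcribed from the maternal chromosome, lay at least 195311 bp away. The 13 genes from Mir743 to Mir470 on chromosome X, known for expression in the testis, lay at least 123759 bp away. Without these clusters, 81 of 410 members had a distal window (19.8%, interval 16 to 23.9). No clusters were removed from the other small RNA classes, so their shares are not a like background for this one.

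The first of these clusters lies whole in an intron of Sfmbt2 and on its strand, so 68 intronic members are 1 locus, and shares by place in the genome are given with and without the 3 clusters (an alternative chosen after seeing the data). Of the members outside protein-coding genes, 46 had a distal window (19.8%, interval 14.9 to 25.5), beside 6.89% of all bases outside such genes, and without the clusters the share was 24.5% (interval 18.5 to 31.3). Members inside a protein-coding gene had one in 35 of 290 cases (12.1%, interval 8.55 to 16.4), beside 10.8% of bases inside such genes. That interval includes the background. Without the clusters the share was 15.8% (interval 11.2 to 21.2). It could only rise, since no cluster gene had a window, and the background was not recomputed. Within hosts, the share was 28.6% for the 42 members overlapping an exon (interval 15.7 to 44.6) and 9.27% for those in introns (interval 5.97 to 13.6), which without the Sfmbt2 cluster became 12.8% (interval 8.28 to 18.6) and then overlapped that of exons. By strand, it was 11.7% for members on the strand of the host (interval 7.97 to 16.4) and 14.3% for the 42 on the other strand (interval 5.43 to 28.5), and without the Sfmbt2 cluster the order turned, with 16.1% on the strand of the host (interval 11.1 to 22.3). The intervals overlapped both ways. Of the members inside long noncoding genes on their own strand, 12 of 50 had a distal window (24%, interval 13.1 to 38.2), or 12 of 42 without the clusters (28.6%). No background share was computed for exons, introns, strands or long noncoding genes.

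Members were also divided by their host's promoter. Where the host had a window at a start site, 28 members (12.3%, interval 8.36 to 17.3) had a distal window near the hairpin, and where it had none, 7 of 63 did (11.1%, interval 4.59 to 21.6). Without the Sfmbt2 cluster the first share was 17.6% (interval 12 to 24.4), and the intervals overlapped in either case. With promoter windows counted too, the shares were 26.4% and 11.1%, and the promoter windows of the host are what defines that split. On chromosome X, 3 of 67 members had a distal window (4.48%, interval 0.933 to 12.5) and 78 did on the autosomes (17.1%, interval 13.8 to 20.9), or 5.56% and 21.9% without the clusters. No background share was computed by chromosome, so whether this difference is particular to microRNA genes was not tested. The 3 genes on chromosome X share 1 window. It lay 2.91 kb upstream of Mir322, the first gene of a cluster with Mir503 and Mir351, and held 42 CpG dinucleotides, with a start site of the long noncoding gene C430049B03Rik within 1 kb.

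Counted once each, the windows near members comprised 130 distal windows (55.1%), from 100 called peaks, and promoter windows (44.9%). The centre lay upstream of the nearest hairpin in 80 distal windows (61.5%, interval 52.6 to 69.9), downstream in 49 (37.7%) and inside the hairpin in 1, at Mir1932. Windows of 1 called peak or 1 locus are not independent counts, so this interval is too narrow. The upstream excess was largest next to the hairpin, with 24 windows in the first kilobase upstream and 10 in the first kilobase downstream. From 2 to 3 kb the counts were 15 and 13, and from 4 to 5 kb they were 11 and 8. A start site of an annotated long noncoding RNA lay within 1 kb of 12 of the 130 windows (9.23%). The distal windows had a median GC content of 55.2% and 11 CpG dinucleotides, between the 31133 distal windows elsewhere (50.4% and 7) and the promoter windows near members (60.9% and 32). Called peaks that kept several windows gave 57 of the 130 distal windows (43.8%, interval 35.2 to 52.8) and 30.1% of distal windows elsewhere. Windows of such peaks are not independent counts, so that interval is too narrow as well.

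**Figure D2:**
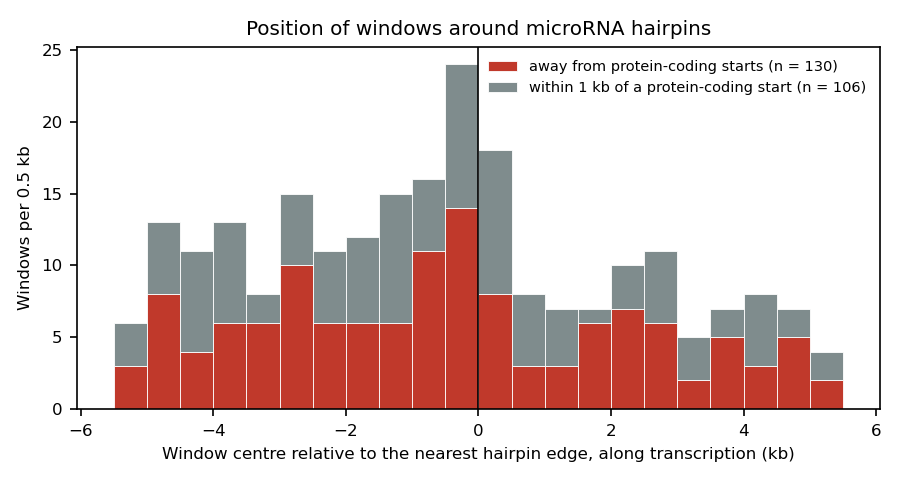
Number of windows per 0.5 kb (y axis) by the position of the window centre relative to the nearest hairpin edge, with upstream to the left (x axis, kb), for distal windows (red, 130) and promoter windows (grey) stacked. Distal windows number 24 in the first kilobase upstream and 10 in the first kilobase downstream.

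A window overlapped the hairpin itself in 21 members (4.02%, interval 2.51 to 6.08), a share for which no background was computed. In 13 of these only promoter windows did so, as at Mir1956 in the gene of the cap-binding protein Eif4e, Mir207 at the chaperone gene Dnaja1, Mir2139 at Klhdc7a, Mir574 in Fam114a1, Mir762 at Bcl7c and Mir1199. In the other 8, distal windows did, namely at Mir671, Mir343, Mir26a-1, Mirlet7i, Mir212, Mir1932, Mir203 and Mir713. Mirlet7i belongs to the let-7 family, which restrains growth and stemness factors, and lies 90.3 kb from the nearest protein-coding start site. Its hairpin spans chr10:122422696-122422780 on the minus strand, and its 3 distal windows were centred 2.1 and 0.436 kb upstream and 0.107 kb downstream. The pair nearest the hairpin held 76 and 62 CpG dinucleotides, and the far one 10. In the 300 bases at the centre of the window over the hairpin (chr10:122422439-122422738, minus strand), capitals mark the part of the hairpin.
Mirlet7i window: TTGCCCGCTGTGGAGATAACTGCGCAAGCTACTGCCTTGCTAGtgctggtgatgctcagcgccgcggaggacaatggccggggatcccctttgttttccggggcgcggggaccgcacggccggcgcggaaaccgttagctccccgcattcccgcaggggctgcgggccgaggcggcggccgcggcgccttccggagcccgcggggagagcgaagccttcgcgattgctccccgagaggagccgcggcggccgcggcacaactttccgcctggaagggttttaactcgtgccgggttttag

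Among the 15 loci with the most distal windows, Mir343 had 6, the highest count of the loci, centred from 0.809 kb upstream to 2.69 kb downstream. It lies in an exon of Ercc2, which encodes a DNA repair helicase, and 2 further windows stood at the promoter of that gene. Mir1953 had 5, of which 4 were upstream, and Mir345 had 5 with 3 upstream and a promoter window of Slc25a29 between them and the hairpin. At Mir455, in an intron of the collagen gene Col27a1, 3 windows lay 2.92 kb upstream and 0.634 and 3.77 kb downstream. Mir1957 lies in an intron of Slc2a1, the gene of the glucose transporter GLUT1, and its 3 windows lay 3.75 to 5.15 kb upstream in the host, whose nearest start site is 20.9 kb from the hairpin. Mir760 had 4 windows, 1 upstream and 3 downstream, and Mir339 had 3.

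The other loci of the 15 included several well-known microRNAs and clusters. The miR-17-92 cluster (Mir17, Mir18, Mir19a, Mir20a, Mir19b-1 and Mir92-1, from chr14:115442893 on the plus strand), which Myc induces and which promotes growth, had 4 distal windows, all upstream of Mir17 at 0.868, 1.38, 2.78 and 3.22 kb. The last 2 came from 1 called peak, and the 2 nearest the hairpin lay within 1 kb of a start site of the host transcript Mir17hg. Mir22 had 4 windows at 0.603, 1.23, 2.24 and 3 kb upstream, each from a called peak of its own and 3 of them within 1 kb of a start of the long noncoding host 2210403K04Rik. Mir22 also lies inside the annotated protein-coding gene Tlcd2. At the cluster of Mir183, Mir96 and Mir182, known from sensory organs and raised in many carcinomas, the 3 windows were pieces of 1 called peak centred 3.61 to 4.4 kb upstream of Mir183. Mir182, the last hairpin of that cluster, therefore had none within 5 kb, its nearest lying 7.11 kb away. All 5 windows of Mir99b and Mir125a came from 1 called peak, 1.49 to 3.81 kb upstream of Mir99b. At Mir193b and Mir365-1 the 4 windows came from 4 called peaks, with 1 upstream of both hairpins, 1 between them and 2 beyond. Mir148a, an abundant microRNA of milk and lactating mammary gland, had windows 0.76 and 1.17 kb upstream and 3.81 kb downstream.

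**Figure D3:**
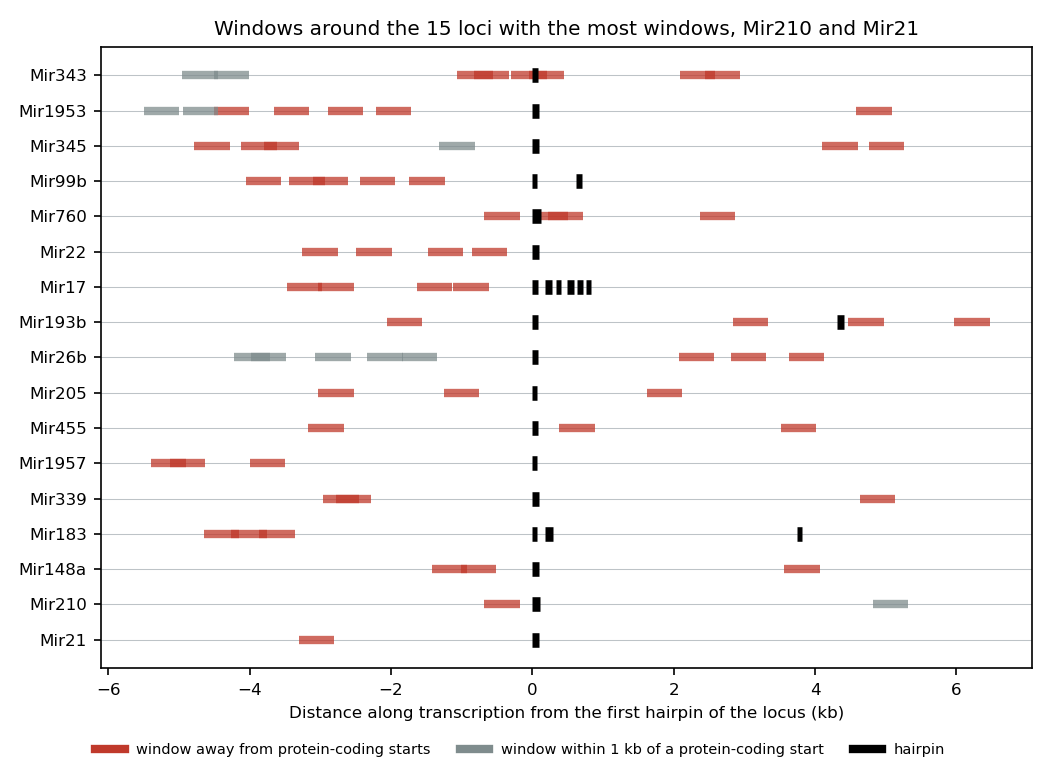
Windows of 500 bp around the 15 loci with the most distal windows, Mir210 and Mir21, drawn by distance along transcription from the first hairpin (x axis, kb), with distal windows in red, promoter windows in grey and hairpins in black. At Mir17, Mir22, Mir99b, Mir183 and Mir1957 all distal windows are upstream, and Mir26b has 5 promoter windows upstream and 3 distal windows downstream.

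Paralogous loci were described by seed. The printed arms were chosen from genes with a distal window, so each family below holds at least 1 by that choice, and families such as miR-30 and miR-34, whose listed members had none, are not among them. Families were counted only over members with a RefSeq entry. Genes without an entry, and genes that are not members, such as Mirlet7b, are therefore missing from the family sizes. In families with 2 or more genes, distal windows stood near all 3 genes with the miR-26 seed UCAAGUA, all 3 with the miR-125 seed CCCUGAG (Mir125a, Mir125b-2 and the X-linked Mir351), and both genes of the seeds ACCCGUA (Mir99a and Mir99b), UCACAGU (Mir27a and Mir27b), AACAGUC (Mir132 and Mir212) and AAUGCCC (Mir365-1 and Mir365-2). In the larger families it was 2 of 8 for the let-7 seed GAGGUAG, 2 of 6 for the miR-17 seed AAAGUGC, 2 of 3 for the miR-19 seed GUGCAAA, 1 of 7 for the miR-92 seed AUUGCAC and 1 of 3 for the miR-148 seed CAGUGCA. Several of these genes sit side by side, so the families are not independent counts. Mir132 and Mir212 share 1 distal window, and Mir99a and Mirlet7c-1 share an upstream window.

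The arrangement differed among the copies of a family. The miR-26 genes lie in Ctdsp1, Ctdsp2 and Ctdspl, which encode small phosphatases of RNA polymerase II. Mir26b in Ctdsp1 had 3 distal windows downstream at 2.33, 3.06 and 3.88 kb and 5 promoter windows upstream. Mir26a-1 in Ctdspl had 1, centred 0.158 kb downstream and over the hairpin, and Mir26a-2 in Ctdsp2 had 1 at 5.07 kb upstream. The miR-125 genes counted here had upstream windows in each of their 3 loci, at 1.49 to 3.81 kb from Mir99b, at 1.98, 2.34 and 3.05 kb from Mir125b-2 and at 2.91 kb from Mir322. Mir23a, Mir27a and Mir24-2 on chromosome 8 had windows 4.81 and 5.13 kb upstream of Mir23a and 1.63 kb downstream of Mir24-2, while the paralogous Mir23b and Mir27b on chromosome 13 had theirs 4.49 and 5.03 kb downstream of Mir27b.

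Members were then counted in 12 lists by known role, in which 2 symbols were matched through a RefSeq synonym. In all, 31 listed members had a distal window (30.1%, interval 21.5 to 39.9), beside 50 of the members in no list (11.9%, interval 8.99 to 15.4). The members in no list include every gene of the 3 largest clusters (21.5% of all members). None of these genes had a window, which lowers the share outside the lists. The lists and their members were chosen with results of these data known, so their shares are a description. In the list of microRNAs linked to hypoxia, 9 of 12 had a distal window (75%, interval 42.8 to 94.5), in 6 of 9 loci, and the 3 without were Mir103-1, Mir103-2 and Mir107. Besides Mir210, these are the miR-23, miR-24, miR-26 and miR-27 genes. The epithelial list stood at 6 of 12 (interval 21.1 to 78.9, 5 of 8 loci), with 3 distal windows each at Mir203, Mir205, Mir183, Mir96 and Mir148a and 1 at Mir375, and none within 5 kb of Mir182, Mir31 and Mir192, among others. In the list of growth-promoting microRNAs it was 7 of 14 (interval 23 to 77, 2 of 6 loci), of which 6 are the miR-17-92 cluster and the other Mir21. Mir106b, Mir93 and Mir25, the paralogous cluster inside Mcm7, had 1 promoter window and no distal one, and Mir155, Mir221 and Mir222 had neither.

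Growth-restraining members had a distal window in 2 of 11 cases, Mir143 and Mir145, which form 1 locus. None stood near the p53-induced Mir34a, Mir34b and Mir34c, the nearest window lying 6.33 kb from Mir34a. The let-7 list counted 2 of 7 (Mirlet7i with 3 windows and Mirlet7c-1 with 1), with Mirlet7a-1, Mirlet7d and Mirlet7f-2 without, the miR-30 list 0 of 6, with Mir30a, Mir30b and Mir30c-1 at 15.2 to 24.2 kb from the nearest window, and the list of microRNAs within Hox clusters 1 of 6, Mir10a at 5 kb upstream, with Mir10b, Mir196a-1 and Mir196a-2 without.

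**Figure D4:**
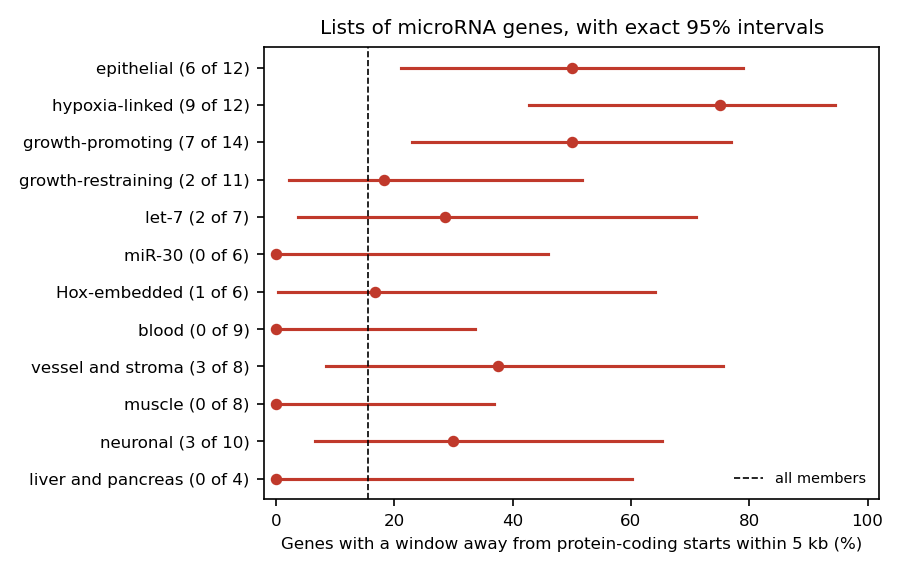
Percent of listed members with a distal window within 5 kb (x axis), with counts beside each list, exact 95% intervals as bars and the share of all members, 15.5%, as a dashed line. The hypoxia-linked list stands at 75%, and the miR-30, blood, muscle and liver and pancreas lists at 0%.

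Lists for other tissues varied, and as stated above they do not describe the whole tumour. The blood list had 0 of 9 with a distal window (interval 0 to 33.6). Of its members, Mir142, Mir223 and Mir150, which mark white blood cells, lay 19.2, 97.4 and 14.1 kb from the nearest window. Mir146b, induced by NF-κB and lying in Tmem180, had 5 promoter windows, not all of them at the start of that host. The muscle list had 0 of 8 (Mir1a-1, Mir133a-1 and Mir133a-2 lay 61.3, 31 and 51.9 kb away) and the liver and pancreas list 0 of 4 (Mir122a, Mir216a and Mir216b). For vessel and stroma it was 3 of 8. Mir143 and Mir145 of smooth muscle and fibroblasts shared a window 0.385 kb downstream of Mir145, which also had 1 at 3.91 kb, and Mir199a-1 had 1 at 0.439 kb upstream in Dnm2. The endothelial Mir126, and Mir199a-2 and Mir214, had none. In the neuronal list 3 of 10 had one, Mir132 and Mir212, which neuronal activity induces through CREB, and Mir138-2, while Mir9-2, Mir128-1 and Mir128-2 had none. A list of 4 to 14 members leaves wide intervals, and those of all lists except the hypoxia-linked, epithelial and growth-promoting ones included the members' overall 15.5%. The intervals of those 3 lists lay above it when genes were counted. Since clustered genes share windows, loci were counted too, and then the epithelial interval (24.5 to 91.5) and the hypoxia-linked one (29.9 to 92.5) lay above the 19.8% of all loci, while that of the growth-promoting list (4.33 to 77.7) included it. The lists were chosen with results of these data known, so these positions are a description and not a test.

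Mir210 and the epithelial members are shown in sequence. Mir210, a microRNA that HIF1α induces directly in low oxygen, spans chr7:148407283-148407392 on the minus strand and lies 4.68 kb from the nearest protein-coding start site, of Rassf7. Its distal window was centred 0.427 kb upstream, and a promoter window lay 5.07 kb downstream. The centre of the distal window (chr7:148407669-148407968, minus strand) holds 2 HIF cores (ACGTG or GCGTG), shown in capitals.
Mir210 window: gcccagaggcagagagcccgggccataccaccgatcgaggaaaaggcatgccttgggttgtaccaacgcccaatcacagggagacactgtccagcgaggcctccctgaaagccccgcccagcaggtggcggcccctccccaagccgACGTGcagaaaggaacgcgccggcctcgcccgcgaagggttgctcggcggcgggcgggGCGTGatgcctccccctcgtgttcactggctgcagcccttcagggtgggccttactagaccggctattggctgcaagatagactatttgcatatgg

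Mir203 and Mir205 act in epithelial identity, the first by lowering p63 in stratified epithelium and the second by lowering the repressors Zeb1 and Zeb2. Mir203 (chr12:113369091-113369166, plus strand) had distal windows 0.235, 0.569 and 4.77 kb upstream, with 70, 34 and 17 CpG dinucleotides. Mir205 (chr1:195333657-195333724, minus strand) lies 137165 bp from a protein-coding start site and had windows 1 and 2.78 kb upstream and 1.87 kb downstream. Mir21, an abundant microRNA of carcinomas, overlaps an exon of Vmp1 at chr11:86397569-86397660 on the minus strand and had 1 window, 3.05 kb upstream. In the stretches below, each from the middle of a window, capitals mark a match to the AP-1 motif TGANTCA, which factors of the Jun and Fos families bind.
Mir203 window (chr12:113368706-113369005, plus strand): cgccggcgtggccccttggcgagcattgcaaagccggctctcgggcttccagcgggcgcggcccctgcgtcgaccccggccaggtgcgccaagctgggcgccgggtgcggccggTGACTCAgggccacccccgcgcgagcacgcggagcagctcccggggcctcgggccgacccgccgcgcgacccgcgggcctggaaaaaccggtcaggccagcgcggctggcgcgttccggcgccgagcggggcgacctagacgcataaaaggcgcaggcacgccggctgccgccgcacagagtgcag
Mir205 downstream window (chr1:195331641-195331940, minus strand): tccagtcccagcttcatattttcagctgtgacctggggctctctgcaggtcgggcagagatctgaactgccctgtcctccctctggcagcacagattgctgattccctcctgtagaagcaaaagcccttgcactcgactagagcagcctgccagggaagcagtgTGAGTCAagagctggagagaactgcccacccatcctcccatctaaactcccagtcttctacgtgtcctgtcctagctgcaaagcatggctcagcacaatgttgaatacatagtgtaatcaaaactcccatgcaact
Mir21 window (chr11:86400563-86400862, minus strand): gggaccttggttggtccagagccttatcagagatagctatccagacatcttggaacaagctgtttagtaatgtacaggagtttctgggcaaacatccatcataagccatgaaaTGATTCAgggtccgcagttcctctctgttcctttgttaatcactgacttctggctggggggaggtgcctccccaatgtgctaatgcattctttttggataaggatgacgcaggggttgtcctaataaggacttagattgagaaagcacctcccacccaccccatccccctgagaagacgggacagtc

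Motifs were then counted on both strands in the 130 distal windows and in the 31133 distal windows elsewhere. The HIF core was in 83 windows (63.8%, interval 55 to 72.1) and in 48.2% of the others, the SP motif GGGCGG in 43.1% (interval 34.4 to 52) and 18%, and the ETS motif CCGGAA in 20.8% (interval 14.2 to 28.8) and 10.5%. Each of these 3 motifs contains a CpG, and the windows near members were richer in GC (above), so GC content moved with these shares and its part in them was not tested. The RUNX motif ACCACA stood lower, in 21.5% (interval 14.8 to 29.6) against 32.5%. For AP-1 the shares were 18.5% and 18.8%, for the Grainyhead-like motif AACNNGTT 10% and 9.88%, for the TEAD motif GGAATG 22.3% and 28.4%, for the nuclear factor I motif TTGGCA 38.5% and 41.6%, for the E-box CACGTG (which contains a HIF core on each strand) 9.23% and 8.21%, and for the forkhead motif TGTTTAC 3.08% and 7.31%, and all of these other shares lay within the members' intervals. A match is a run of letters and not a bound site.

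**Figure D5:**
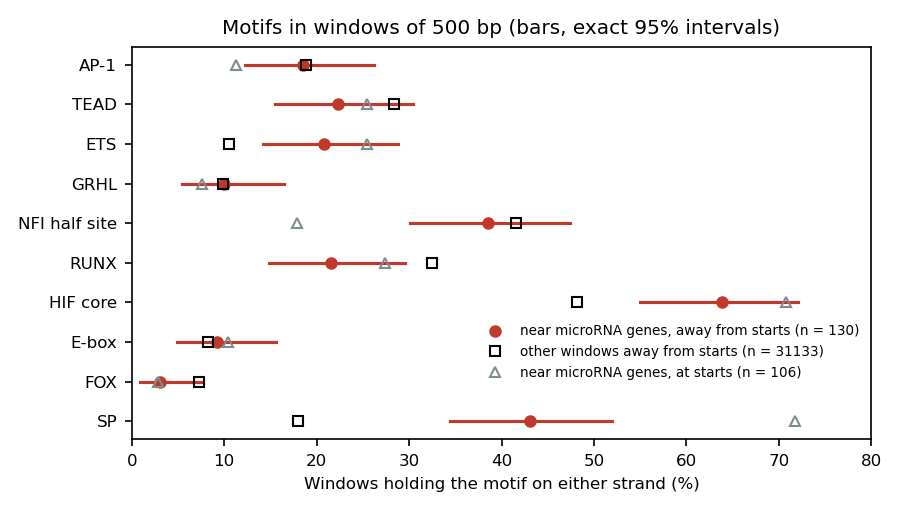
Percent of windows of 500 bp that hold each motif (x axis), for distal windows near members (red, exact 95% intervals), distal windows elsewhere (black squares) and promoter windows near members (grey triangles). The HIF core stands at 63.8% against 48.2% elsewhere, and AP-1 at 18.5% against 18.8%.

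Within named loci the motifs fell unevenly. The HIF core occurred 7, 5, 5 and 2 times in the 4 windows upstream of Mir17, 5 and 4 times in the upstream windows of Mir148a, and 7 and 5 times in the overlapping upstream pair of Mir339. None of the 4 windows of Mir193b and Mir365-1 held it. AP-1 was matched in 1 of the 6 windows of Mir343, 2 of the 4 of Mir22 and 1 of the 3 of Mir183.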

How the data were processed

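Single cells of MMTV-PyMT breast tumours were profiled by Pi-ATAC. The authors trimmed adapters, mapped reads to mm9 (Bowtie2 version 2.1.0, Picard version 1.79; the submitters' notes also name hg19), kept uniquely mapped reads, and called summits on pooled cells with MACS2 at a q-value of 0.05 (its version was not found). Near-identical hairpins can therefore lack reads. The deposited list holds the 50000 summit windows of lowest q-value, 500 bp each, without scores, counts or depth. GEO's labels give 768 wells stained for EpCAM and HIF1α and 192 stained for EpCAM and CD45, and the sources do not say if the latter were pooled too. The cell counts that the paper reports for these stainings do not match this split.

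Hairpins, hosts and 45940 protein-coding start sites came from GENCODE M1 on chromosomes 1 to 19 and X, and distances were taken between nearest edges, positions from window centres. Python 3.11.15 and scipy 1.17.1 gave the exact 95% intervals, and the counting was checked on simulated data. Named were the 15 loci with most distal windows, up to 4 listed members with windows and 3 without, the first 10 with a window over the hairpin, the 3 largest clusters, Mir210 and Mir21. Other members named were chosen after their values were seen. Members and lists were chosen with earlier results of these data known. Of the 116 listed symbols, 13 had no match. The rule gave 522 members in 323 loci, 125 with a window, 397 without, and 236 different windows, 106 of them promoter windows. It placed 290 members inside and 232 outside protein-coding genes, 455 on autosomes and 67 on chromosome X. RefSeq had 412 of them, and lists 103. The alternatives tried are given in the closing section.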

Additional observations from a re-analysis of the deposited data

How the results depend on the processing

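With distance taken from the window centre or overlapping windows merged, no main count moved by over 1.5 times and no main share left its interval. At 1 kb, 10.9% of members had any window and 6.13% a distal one (8.98% of loci), with 3.79% inside and 9.05% outside protein-coding genes, and 70.7% of distal windows were upstream. At 10 kb, 23.9% of members and 31% of loci had a distal window, 20.3% inside and 28.4% outside. With only called peaks that kept 2 or more windows, 11.1% of members had any window and 6.13% a distal one (6.81% of loci), the shares inside and outside were again 3.79% and 9.05%, and 70.2% were upstream. Setting windows apart within 2.5 kb left 71 members with a distal window, and adding long noncoding start sites 75. Without the 3 largest clusters, added after seeing the data, 30.5% of members had any window and 19.8% a distal one, with 15.8% inside and 24.5% outside protein-coding genes. Joining loci within 3 or 50 kb gave 65 and 62 loci with one. At 10 kb the listed members with a distal window rose from 31 to 41, and the hypoxia-linked count stayed at 9. In 5 lists (growth-restraining, let-7, Hox, blood and muscle) the count rose by 1 to 3 members, each over 1.5 times its count. Smaller rises were seen in the epithelial (6 to 7), growth-promoting (7 to 8) and neuronal (3 to 4) lists. No motif difference left its interval against windows inside or outside protein-coding genes alone, but those of AP-1 and the Grainyhead-like motif (-0.3 and 0.12 percentage points against both) were positive against windows inside (0.8 and 0.5) and negative against windows outside (-1.4 and -0.3).

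The nearest distal window lay 4.75 kb from Mir10a and Mir1190 and 4.82 kb from Mir26a-2, just inside the limit, and 5.14, 5.23 and 5.54 kb from Mir139, Mir184 and Mir135a-1, just outside. The list is 1 pooled sample, so there was no replicate to leave out. Without depth, a hairpin with no window was not among the strongest 50000 calls, which does not show closed chromatin. Genes in 1 locus share windows and several windows can come from 1 called peak, so intervals over genes and over windows are too narrow.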

Other observations

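Promoter windows made up 37.5% of the whole list (18737 of 50000). The members with most of them and no distal window were Mir762, Mir425 and Mir146b with 5 each and Mir706, Mir484 and Mir219-1 with 4 each. Mir425 lies 1.03 kb from a start site of Dalrd3, Mir484 lies 0.351 kb from one of 4921513D23Rik and Mir219-1 lies 0.302 kb from one of Ring1, a subunit of Polycomb repressive complex 1. For these 6 members the nearest distal window lay between 5.77 kb (Mir146b) and 78 kb (Mir706) away. The share of members with a distal window rose with the distance allowed, from 6.13% within 1 kb through 15.5% within 5 kb to 48.3% within 50 kb and 94.8% within 1000 kb. In the other genes of type miRNA the same shares were 4.49%, 13.2%, 46% and 96.4%, and in snoRNA genes 2.84%, 9.28%, 39.8% and 95.8%.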
